A study of Mus musculus with 64 samples.

Results

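The subject is 32 imprinted genes, among them Peg3, in tumour cell lines from a mouse model of pancreatic ductal adenocarcinoma. Imprinted genes are transcribed mainly from a single parental allele, and DNA methylation laid down in the germ line tells the parental alleles apart. They lie in clusters that share a control region, so that neighbouring genes can be switched together. Several of them act on embryonic growth, and many are turned down in adult tissues and altered in tumours. The members were taken by name from the textbook list of mouse imprinted genes, with earlier results of these data known. They fall into 17 clusters, 7 of which hold 2 or more members. The reads were not split by allele, so every level below is a total over both alleles.

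Of the 32 genes, 30 had a row in the count table of 39017 genes and all had a row in the table of RPKM, in which reads are scaled by transcript length and by library size. At least 1 read was counted for 28 members, and 14 members passed the low-count filter for the comparison of lines in mono-culture.

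The clones came from 1 tumour of a mouse whose engineered alleles include Trp53+/R172H and Pdx1-Cre, in which Cre driven by the Pdx1 promoter activates mutant Trp53 in the pancreas. The labels give the strain as C57BL/6 mixed. The 7 clonal lines, named V, T, N, M, K, H and E, were subcloned from 1 polyclonal line and share the engineered alleles of that mouse. An additional line is labelled KPC1, and its relation to the clones is not given in the sources used here. The study sorts the clones into group 1, which holds V, H and E, and group 2, which holds T, N, M and K, with KPC1 in neither. Each of the 8 lines was grown alone (mono-culture) or for 48 h with fibroblasts (coculture), after which GFP-positive tumour cells were sorted by flow cytometry. There were 4 libraries for each line and culture, 64 in all, of polyadenylated RNA. Each clone stems from a single cell of 1 tumour, so differences between clones describe this tumour and no other animal.

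Library totals ranged from 11178721 to 21333683 counts (median 15648009.5). The 96 pairs of libraries within a line and culture all differed by more than sampling noise, with a chi-square per gene of 4.46 to 65.5. The labels carry 2 series of sample-sheet numbers, one on 43 libraries and the other on 21, and all 4 mono-culture libraries of clone K belong to the smaller series. As a check of cell identity, the keratins Krt8 (687 to 1280 CPM in mono-culture line means, CPM being the count scaled in the standard way to library size) and Krt18 (967 to 1545 CPM) were high in every line. Other epithelial markers were not: Epcam stayed at or below 0.370 CPM and Cldn4 at or below 0.840 CPM, and the adhesion gene Cdh1 ran from 0.998 to 303 CPM across lines.

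Peg3 and Usp29 are printed first because they start within one short interval on opposite strands and were high in the same clone. Snrpn and Ndn are shown because they lie in one domain yet were high in different lines. Each sequence runs from 250 bases before the transcription start to 50 bases after it (RefSeq, GRCm38.p6), in lower case with CpG dinucleotides, the sites of DNA methylation, in capitals. The Peg3 window is chr7:6730370-6730669 on the minus strand and holds 13 CpG (37.9% of all windows hold at least as many). The Usp29 window is chr7:6730333-6730632 on the plus strand and holds 17 CpG (31.4%). These windows share 263 bases as reverse complements. Snrpn has windows with 7, 4, 3 and 2 CpG, and the one with the most CpG is shown (chr7:60005150-60005449, minus strand). The Ndn window is chr7:62348027-62348326 on the plus strand with 11 CpG.
Peg3: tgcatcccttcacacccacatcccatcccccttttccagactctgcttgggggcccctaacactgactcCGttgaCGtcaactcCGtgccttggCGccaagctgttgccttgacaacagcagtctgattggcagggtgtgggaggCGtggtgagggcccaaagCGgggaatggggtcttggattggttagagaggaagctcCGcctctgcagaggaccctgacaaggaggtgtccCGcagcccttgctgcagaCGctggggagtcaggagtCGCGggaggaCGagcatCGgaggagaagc
Usp29: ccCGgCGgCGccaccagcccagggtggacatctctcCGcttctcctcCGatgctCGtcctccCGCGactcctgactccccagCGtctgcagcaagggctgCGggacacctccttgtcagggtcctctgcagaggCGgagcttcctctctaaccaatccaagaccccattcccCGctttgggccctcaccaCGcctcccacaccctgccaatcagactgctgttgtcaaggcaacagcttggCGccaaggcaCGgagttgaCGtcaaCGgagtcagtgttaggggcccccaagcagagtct
Snrpn: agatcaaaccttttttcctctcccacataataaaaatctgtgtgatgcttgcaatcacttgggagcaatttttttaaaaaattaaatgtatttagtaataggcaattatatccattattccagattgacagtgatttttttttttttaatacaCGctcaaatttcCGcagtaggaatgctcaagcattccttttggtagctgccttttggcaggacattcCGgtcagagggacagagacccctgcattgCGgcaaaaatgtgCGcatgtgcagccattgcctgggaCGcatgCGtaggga
Ndn: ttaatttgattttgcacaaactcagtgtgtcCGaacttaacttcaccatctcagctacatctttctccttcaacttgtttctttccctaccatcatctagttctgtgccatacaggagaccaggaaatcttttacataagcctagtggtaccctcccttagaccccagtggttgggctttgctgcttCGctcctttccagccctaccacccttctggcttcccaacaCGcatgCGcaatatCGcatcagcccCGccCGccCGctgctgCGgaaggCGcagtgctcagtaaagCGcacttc

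Over the 38 windows that matched 25 of the members by symbol, the median was 12.5 CpG, beside 7 CpG over all 32851 windows. Windows on chromosome 18, where the member Impact lies, were left out of these counts and of every share of all windows given here and above. The hexamer TGCCGC, a core of the motif read by the imprint-maintaining zinc finger protein ZFP57, was found on either strand in 11 of the 38 windows (28.9%), beside 11.6% of all windows. The 8-letter motif GCCATNTT, a core of the YY1 site, was found on either strand in 0 member windows and in 6.05% of all windows. The motifs are letter matches within 300 bases only. The hexamer itself holds a CpG, and the shares were not compared at equal CpG content. Windows of the same gene can overlap, as at Mest, and then a match counts more than once. The build is the mouse genome GRCm38 (mm10), and gene coordinates below are from GENCODE M21.

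In mono-culture the members did not move as one block. Each cluster had its own pattern over the lines: Peg3 was above 1 CPM in clone V and KPC1 and in no other line, Snrpn was at 0 in clones M and T, Ndn was found in clone M and KPC1, Peg10 and Sgce were nearly off in clone K, and Grb10 was low in clone V. With edgeR's quasi-likelihood test, 12 of the 14 members tested differed among the 8 lines at an adjusted p under 0.1, beside 96.9% of all genes tested. Mcts2 (adjusted p = 0.116) and Nnat (adjusted p = 0.719) did not pass. When each line was set against the mean log level of the other 7, 26 of 112 line-gene pairs were higher by more than 1 on the log2 scale (23.2%, beside 7.88% of all pairs) and 11 were lower (9.82%, beside 6.51%). These pairs are not independent, and few genes supplied many of them. Ndn passed the low-count filter through M and KPC1 alone, and Peg3 mainly through V and KPC1. In those lines these genes could only be called higher, so the filter in part fixed these calls, and their p-values carry this limit. Snrpn was called higher in E, H, V, K, N and KPC1, with M and T at 0. Sgce was called higher in H, V, M, T and KPC1, and Peg10 in H, V, M and KPC1, with both nearly off in K. KPC1 had the most higher calls, 7 of 14 (beside 9.18% of all genes in that line), and no lower call. Clone M had 4 higher calls (beside 8.9%) and no lower call. Of 15 members above 1 CPM in at least 1 line, 4 (26.7%) were below 0.1 CPM in another line, beside 6.99% of all such genes. None was above 1 CPM in exactly 1 line and below 0.1 CPM in at least 6 others, a pattern found in 0.548% of all such genes.

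**Figure D1:**
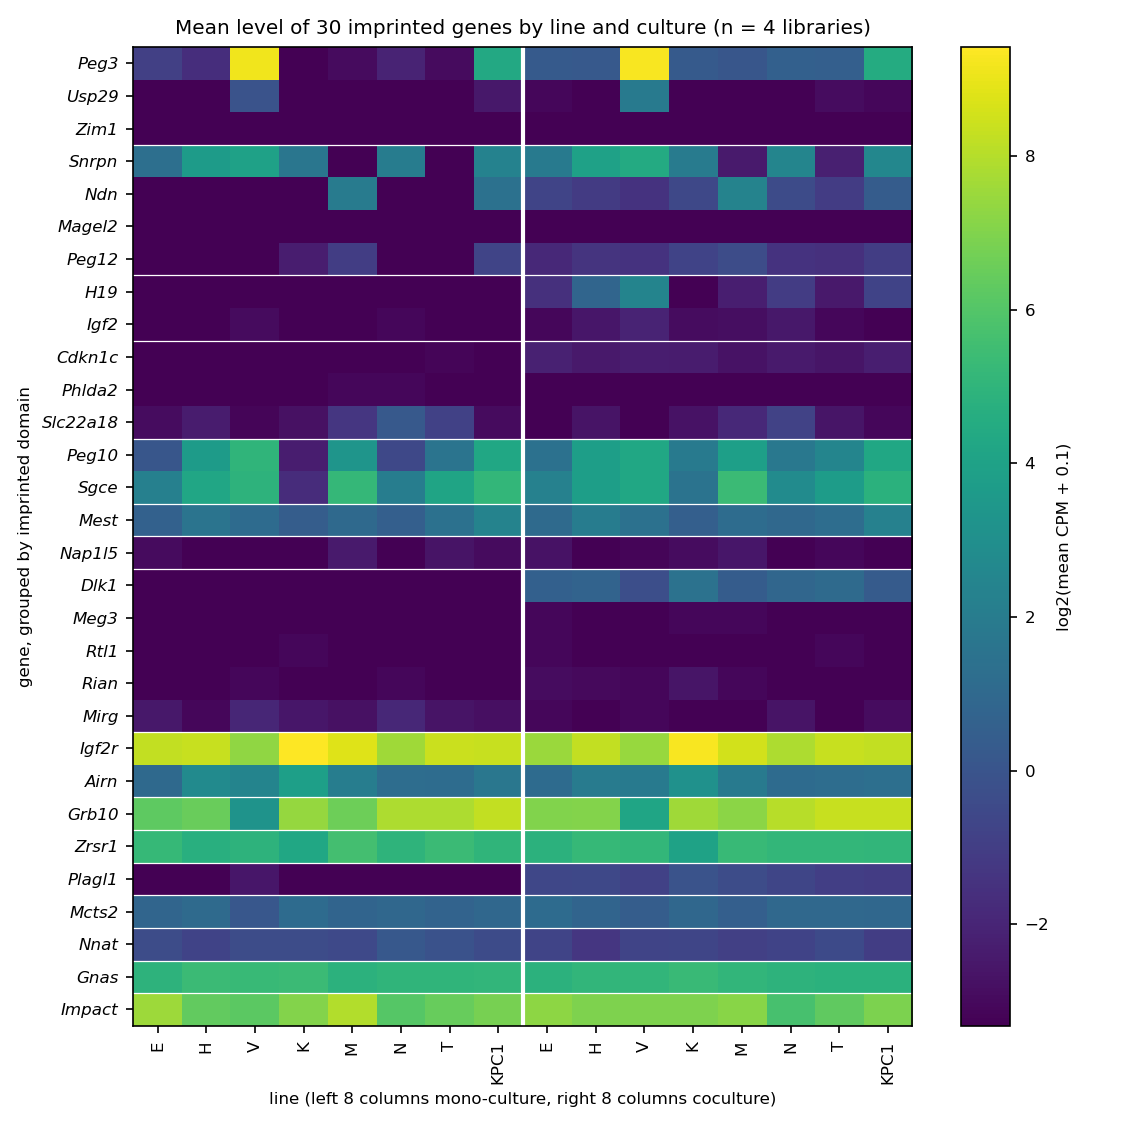
Heat map of log2(mean CPM + 0.1) for the 30 members with a count row (rows, by cluster) in the 8 lines in mono-culture and in coculture (16 columns, each the mean of 4 libraries). Low values are dark and high values bright. Peg3 stands out in clone V, and Peg10 and Sgce are dark in clone K in mono-culture. Dlk1 has the darkest colour in all mono-culture columns and is lighter in all coculture columns.

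Peg3 (ENSMUSG00000002265, chr7:6703892-6730431, minus strand) is a paternally expressed zinc finger gene known for roles in growth and maternal behaviour. In the clone V mono-culture libraries Peg3 stood at 503, 585, 516 and 626 CPM (mean 557 ± 58.2, SD, n = 4). In the KPC1 libraries Peg3 was 21.5, 22.3, 17.9 and 20.4 CPM. These ranges lay far apart, and the pooled Peg3 level of clone V was 27.4-fold that of KPC1. Peg3 averaged 0.44 CPM in E, 0.22 in H, 0.15 in N, 0.03 in M and 0.03 in T. Of the clone H libraries, 1 held all of its Peg3 reads (0.881 CPM). Clone K had 0 counts in 4 libraries, so Peg3 was at least 11046-fold higher in V than in K, taking 3 counts over the group as the floor. The edgeR log2 difference of Peg3 from the other 7 lines was 11.66 (SE 0.17, adjusted p = 2.76e-27) in V and 6.27 (SE 0.24, adjusted p = 1.04e-17) in KPC1. The size of both values depends on the small count added to each library, because lines in the reference had few or no Peg3 reads. The SE does not cover this. Per length, Peg3 in clone V reached 40.2 ± 3.81 RPKM (SD, n = 4). This lay above the highest line mean of Grb10, 32.7 RPKM in KPC1, but not above all members, since Gnas was higher per length in every line.

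Usp29 (chr7:6730578-6967219, plus strand), a paternally expressed gene for a ubiquitin-specific protease, begins beside Peg3. In mono-culture it was counted in clone V, at 0.271, 1.13, 1.37 and 0.71 CPM, and in KPC1 at a mean of 0.08 CPM, with 0 counts in the other 6 lines. It did not pass the low-count filter in mono-culture. Over the 8 mono-culture line means, Peg3 and Usp29 had r = 0.94 and rho = 0.76 on the log scale, a description over 8 lines, 7 of them from 1 tumour. Outside clone V and KPC1 Usp29 was at 0, so this r rests on those lines. In coculture Usp29 in clone V was 3.74, 3.17, 4.76 and 3.17 CPM, so that every coculture library lay above every mono-culture library (log2 change 2.06, SE 0.39, adjusted p = 8.74e-05). Zim1, a maternally expressed zinc finger gene on the other side of Peg3, had 0 counts in all 64 libraries. The 9 genes tested within 1 Mb of this cluster that are not members had a median log2 difference of -0.12 in clone V and -0.23 in KPC1, so the height of Peg3 in these lines was not seen in the median of its neighbours.

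**Figure D2:**
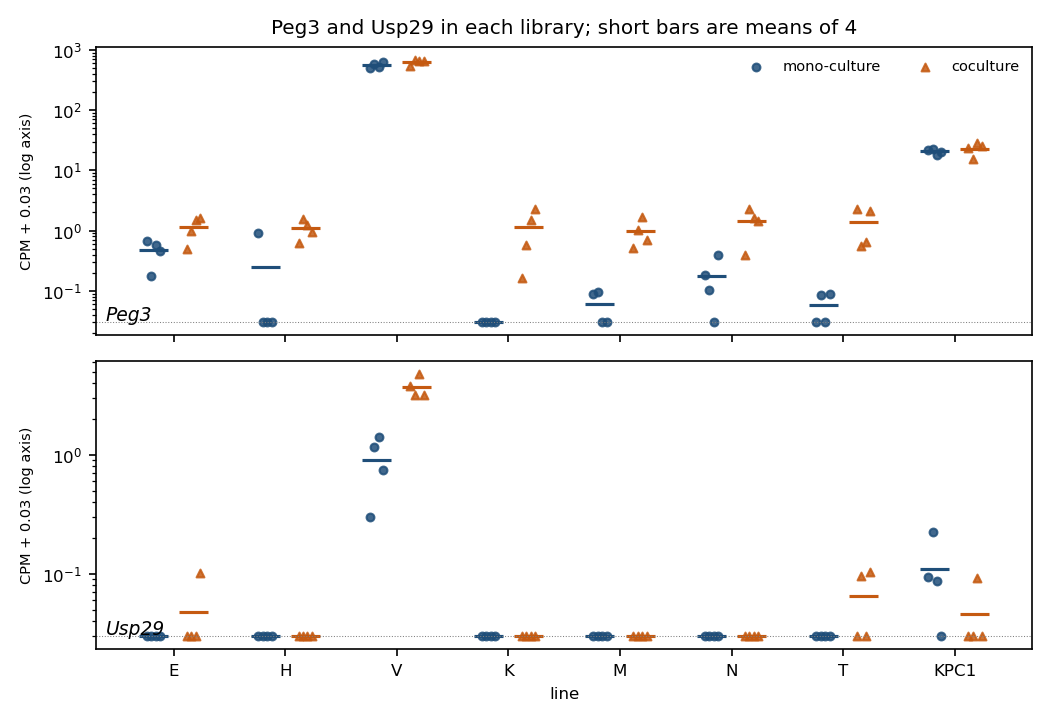
CPM of Peg3 and Usp29 in each library (log axis, 0.03 added), by line, with circles for mono-culture, triangles for coculture and bars for means of 4 libraries. Clone V lies at 503 CPM or more for Peg3 in both cultures, KPC1 near 20 CPM, and the other 6 lines at or below 2.29 CPM.

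In the Snrpn-Ndn domain, the mouse counterpart of the Prader-Willi region, neighbouring genes were on in different lines. Snrpn (chr7:59982495-60140219, minus strand) encodes a spliceosomal protein, and its promoter region carries the domain's imprinting centre. Clone V had 17.9, 16.3, 16.6 and 11.5 CPM of Snrpn and clone H had 13.5, 13.3, 11.7 and 12.3 CPM, so that these lines overlapped. KPC1 (mean 4.85 CPM), N (4.01), K (3.05) and E (2.43) followed, and each of their Snrpn libraries lay between 1.9 and 5.51 CPM. All 8 libraries of clones M and T had 0 counts, and Snrpn was at least 334-fold higher in V than in M. The log2 difference of Snrpn from the other lines was 4.39 (SE 0.15) in V and 4.07 (SE 0.16) in H. Snrpn also counted as higher in E, K, N and KPC1, because the reference there is a mean of log levels that includes the 0 counts of M and T. On the RPKM scale the calls in E and K turned direction, at -0.24 and -0.01.

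Ndn (chr7:62346569-62350262, plus strand) encodes necdin, a growth-suppressing MAGE-family protein. In clone M Ndn was 3.88, 4.11, 3.87 and 3.34 CPM, and in KPC1 it was 2.02, 3.56, 1.99 and 2.92 CPM. It had 0 counts in the mono-culture libraries of the other 6 lines. The log2 difference of Ndn was 7.71 (SE 0.29) in M and 7.14 (SE 0.31) in KPC1, values whose size depends on the small count added to each library. Peg12, a paternally expressed gene about which less is known, was counted at a mean of 0.39 CPM in M, 0.50 in KPC1 and 0.10 in K, and at 0 elsewhere. Magel2, another MAGE-family gene next to Ndn, had 0 counts in all 64 libraries. Over the 8 mono-culture line means, Ndn and Peg12 had r = 0.94 and rho = 0.84, while Snrpn and Ndn had r = -0.37 and rho = -0.26. Ndn was above 0 only in M and KPC1, so each r with Ndn rests largely on those lines. Clone M was thus the line with Ndn and without Snrpn, and clone T had 0 counts of both.

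**Figure D3:**
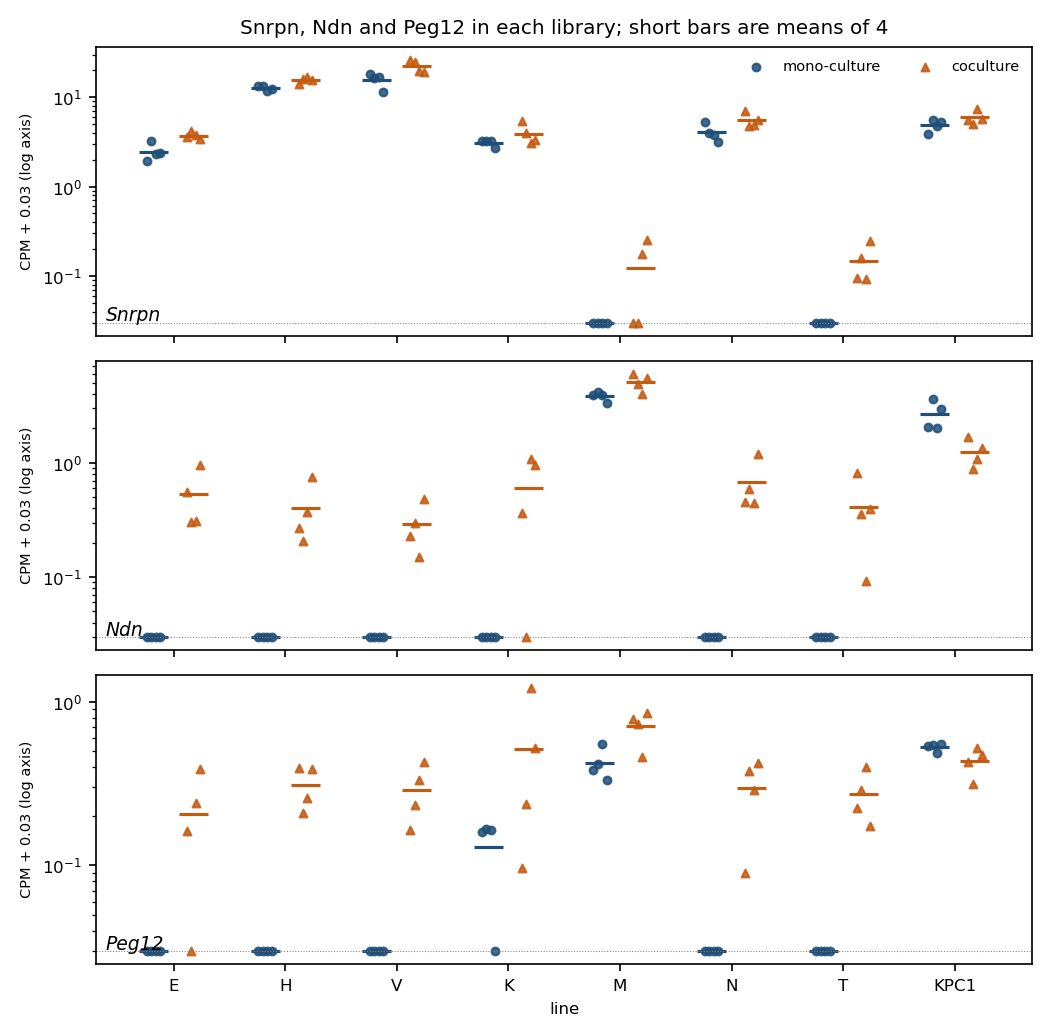
CPM of Snrpn and Ndn in each library (log axis, 0.03 added), by line, with circles for mono-culture, triangles for coculture and bars for means of 4 libraries. In mono-culture Snrpn is at 0 in clones M and T and Ndn is above 0 only in clone M and KPC1.

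Peg10 (chr6:4747306-4760517, plus strand) is a paternally expressed gene derived from a retrotransposon, needed in the placenta. Sgce (chr6:4674350-4747207, minus strand) encodes epsilon-sarcoglycan and starts next to it. In clone K Peg10 was 0.0648, 0.138, 0 and 0.209 CPM and Sgce was 0.0648, 0.276, 0.0671 and 0.417 CPM. Every mono-culture library of the other 7 lines lay above these. Peg10 was highest in clone V (28.4, 29.6, 29.7 and 40.5 CPM), followed by KPC1 (mean 18.9), H (12.6), M (9.95), T (2.89), E (0.95) and N (0.57). Sgce was highest in clone M (35.1, 35.8, 39 and 35 CPM), and neither KPC1 (mean 34.3) nor V (30.1) stood clear of M by its library spread. The remaining Sgce means were 18.2 CPM in H, 17.5 in T, 4.63 in E and 4.11 in N.

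The log2 difference of clone K from the other lines was -5.60 (SE 0.36, adjusted p = 3.99e-14) for Peg10 and -6.21 (SE 0.26, adjusted p = 1.53e-18) for Sgce. All clone K mono-culture libraries belong to the smaller sample-sheet series, and with that series as a covariate the values were -5.89 and -6.15. Clone V was higher for Peg10 by 3.75 (SE 0.13) and for Sgce by 1.95 (SE 0.11). Over the 8 mono-culture line means, Peg10 and Sgce had r = 0.92 and rho = 0.83. In the same region, Casd1 and Ppp1r9a, which are listed as imprinted in some tissues, were highest in clone V at 51.6 and 40.3 CPM, with Ppp1r9a at 4.86 CPM or below in the other lines and Casd1 lowest in K at 10.7 CPM. Leaving out 5 such listed genes, the other 4 genes tested within 1 Mb had a median log2 difference of 2.93 in V (0.40 to 7.08), 1.49 in KPC1, -1.93 in M and -0.17 in K (-1.57 to 0.60).

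Grb10 (chr11:11930508-12038683, minus strand) encodes an adaptor protein that dampens signalling from the insulin and IGF receptors. Clone V had 8.55, 7.99, 11.3 and 8.45 CPM of Grb10, below every library of every other line. Line means of Grb10 were 75.5 CPM in E, 91.5 in H, 96.2 in M, 168 in K, 230 in N, 230 in T and 306 in KPC1. The log2 difference of Grb10 in V was -4.08 (SE 0.19, adjusted p = 1.33e-17). Clones N and T were higher than the mean of the others by 1.29 (SE 0.12) and 1.26 (SE 0.12), and KPC1 by 1.78 (SE 0.11), with overlapping libraries among these 3 lines. Clone V thus had the highest Peg3, Usp29 and Peg10 and the lowest Grb10 and Igf2r of the 8 lines.

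**Figure D4:**
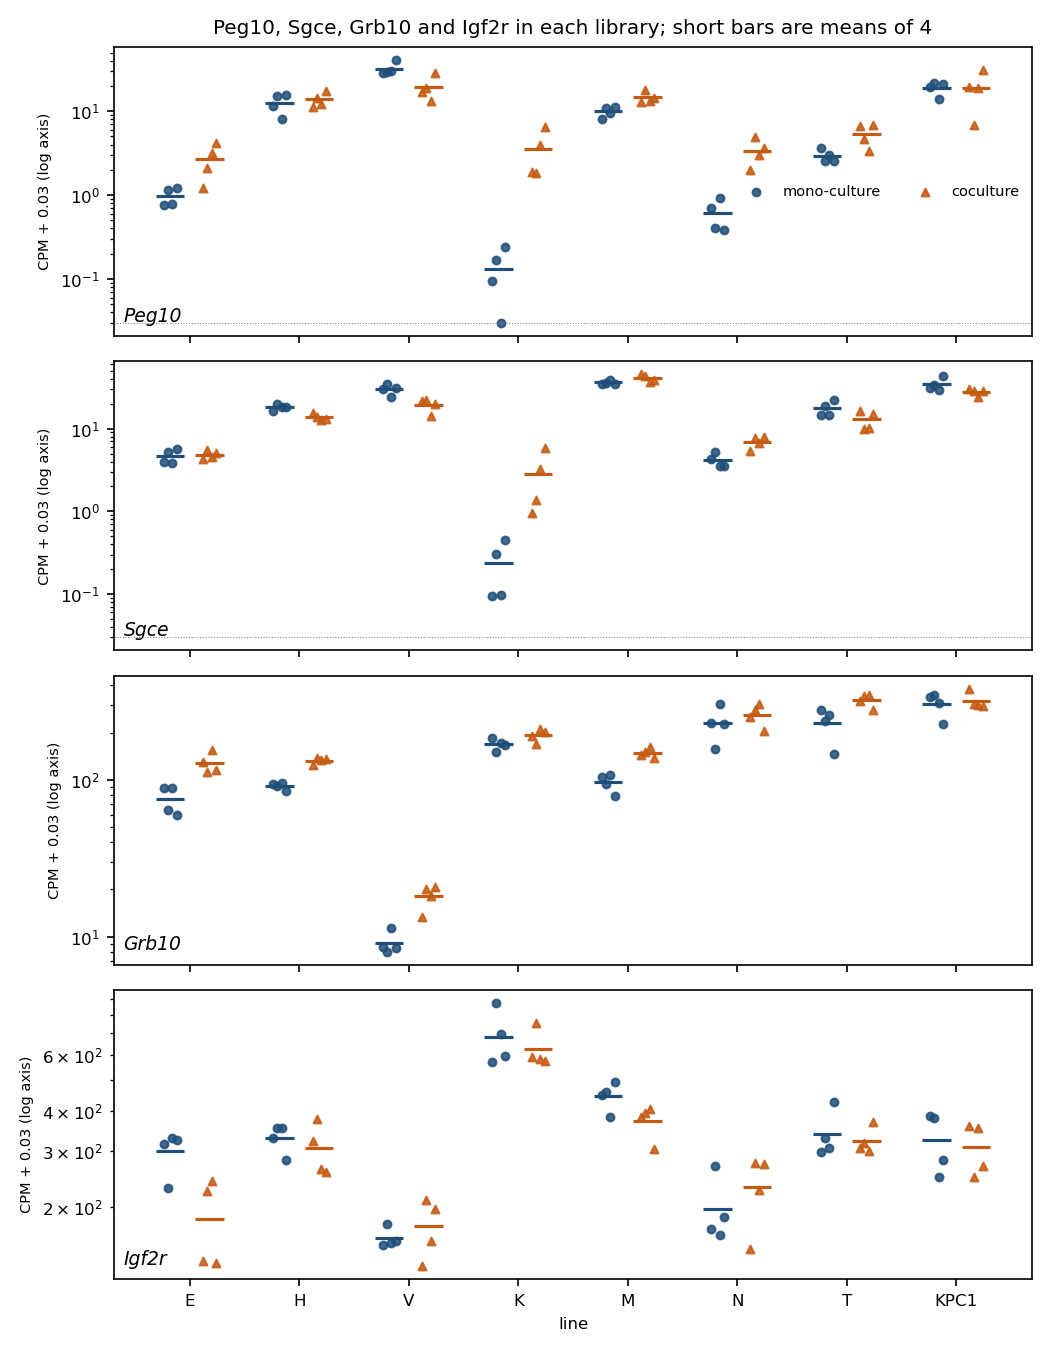
CPM of Peg10, Sgce and Grb10 in each library (log axis, 0.03 added), by line, with circles for mono-culture, triangles for coculture and bars for means of 4 libraries. Clone K sits lowest for Peg10 and Sgce in mono-culture and is higher in coculture, and clone V sits lowest for Grb10 in both cultures.

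Igf2r (chr17:12682406-12769664, minus strand) encodes the receptor that clears the growth factor IGF2, and Airn is the antisense transcript that silences it on the paternal allele. Igf2r was highest in clone K, at 570, 871, 696 and 596 CPM, above every library of the other lines, and lowest in clone V at 151, 176, 154 and 155 CPM. Clone N (mean 197 CPM) overlapped V. The log2 difference of Igf2r was 1.27 (SE 0.11) in K and -1.16 (SE 0.13) in V. Airn was also highest in clone K, at 23.7, 10.5, 13.7 and 10.2 CPM, with means of 1.94 to 6.77 CPM in the other lines and a log2 difference of 2.12 (SE 0.24). These transcripts overlap on opposite strands and the strand setting of the counting is not given in the sources used here, so Airn counts may include Igf2r reads. Over the 8 mono-culture line means, Igf2r and Airn had r = 0.51 and rho = 0.36.

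The other members above background differed less between lines. Impact, a regulator of translation under amino acid shortage, was highest in clone M (mean 247 CPM, log2 difference 1.29, SE 0.07), followed by E (190), and ranged from 66.7 to 134 CPM in the other 6 lines. Mest, a paternally expressed hydrolase gene, was highest in KPC1 (mean 5.16 CPM, log2 difference 1.5, SE 0.17) and 1.24 to 2.87 CPM elsewhere. Zrsr1, a splicing factor gene, ranged from 19 to 48.2 CPM and Mcts2 from 0.98 to 2.08 CPM. Slc22a18, a transporter gene, was uneven within clone N (1.12, 2.52, 0.489 and 0.214 CPM). Its mean was 0.45 CPM in T, 0.31 in M, 0.097 in H, 0.051 in K, 0.032 in E, 0.029 in KPC1 and 0.013 in V. Gnas, which encodes the stimulatory G protein alpha subunit, was 29.4 to 41.6 CPM in the count table and 91.7 to 155 RPKM in the other table. The lengths implied by these values, a median of 307 bases, are far below the 11186 bases of its exons, so the count row does not hold all reads of the gene. Nnat likewise had 0.48 to 1.02 CPM and was listed at 0 RPKM in every library. It overlaps Blcap on the opposite strand.

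Peg13 and Kcnq1ot1 have no count row and were tested with limma on log2(RPKM + 0.1). Peg13 (chr15:72805600-72810324), a noncoding RNA inside an intron of Trappc9, differed among the lines (adjusted p = 4.2e-13), as did 17 of the 18 members in that test, beside 83% of all genes. Peg13 was highest in clone E (10.1, 12.2, 11.7 and 11.6 RPKM) and K (9.03, 10.4, 9.4 and 9.4 RPKM) and lowest in KPC1 (1.23, 1.37, 1.58 and 1.82 RPKM). Kcnq1ot1, the noncoding RNA of the Kcnq1 domain, was 0.04 to 0.11 RPKM and overlaps Kcnq1.

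The remaining members were at or near 0 in mono-culture. The growth-promoting ligand Igf2 had 3 counts over 32 libraries and the cell-cycle inhibitor Cdkn1c had 1. Phlda2, Rian, Rtl1 and Meg3 were near 0 in both cultures, Nap1l5 had 14 counts in mono-culture and 11 in coculture, and Mirg had 39 and 8. Dlk1 and H19 had 0 counts in all 32 mono-culture libraries, and Plagl1 had 5 counts. In libraries of this size a count of 0 says that the transcript was not detectable, not that it was absent.

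The question behind the clone groups was whether lines of group 1 and group 2 differ. With each line's mono-culture libraries summed, so that a line counts once, 0 of 14 members and 0 of all 14829 genes tested passed an adjusted p of 0.1 in edgeR (0% of all genes). At an unadjusted p under 0.05 there were 2 members and 766 genes. Peg3 had a log2 difference of 11.81 (SE 3.10, unadjusted p = 0.00608, adjusted p = 0.888) for group 1 over group 2, which fell to 2.73 without clone V. Slc22a18 was lower in group 1 by a log2 difference of -3.47 (SE 1.08, unadjusted p = 0.0139). With DESeq2 117 genes of all and 0 members passed.

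Coculture with fibroblasts changed which members were detected. Over the lines, 8 of the 17 members tested changed in edgeR at an adjusted p under 0.1 (47.1%, beside 54.6% of all genes), 6 up (beside 27.2%) and 2 down (beside 27.4%). The median log2 change of the members tested was 0.21, beside -0.001 over all genes. Within lines, 46 of 160 line-gene pairs were higher in coculture by more than 1 on the log2 scale (28.7%, beside 7.12% of all pairs) and 2 were lower (1.25%, beside 6.38%). These higher pairs came from few genes: Dlk1 and Plagl1 in 8 lines each, Peg3, Ndn and Peg12 in 6 each, H19 in 5, Peg10 in 3, Snrpn in 2, and Usp29 and Sgce in 1 each. Dlk1, H19 and Plagl1 had 0, 0 and 5 counts in mono-culture, so they passed the low-count filter through coculture libraries alone. Peg12, at most 0.526 CPM in any mono-culture library, and Usp29 also needed coculture libraries to pass it. Dlk1, H19 and Plagl1 could only be called higher, and the filter in part fixed the share of higher pairs. Dlk1 and Plagl1 entered the test over the lines in the same way. Peg3, Ndn and Peg12 were at or near 0 in several mono-culture lines and passed its filter only with the help of coculture sums. Their higher calls over the lines, and the p-values given below, carry this limit. Some of the higher calls rested on single replicate numbers. Plagl1 in V was lost without replicate 2 or 3 (log2 change 2.52 and 2.20), Peg12 in K without replicate 3 or 4 (1.46 and 1.81), Snrpn in M without replicate 3 or 4 (3.34 and 2.82) and H19 in E without replicate 1 (3.93).

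Fibroblast transcripts moved with this comparison. Of 20 fibroblast markers, 6 (Dcn, Fap, Lum, Mfap5, Postn and Thy1) were under 1 CPM in every mono-culture line mean. Their summed level was 0 to 0.201 CPM in mono-culture libraries and 14.6 to 156 CPM (median 68.4) in coculture libraries. Postn supplied much of that sum (38.1 to 73.5 CPM in line means), whereas Lum (at most 0.242 CPM) and Mfap5 (at most 0.0537 CPM) stayed near 0. The other markers were already counted in tumour cells grown alone, and of 18 markers tested 14 rose and 1 fell over the lines in edgeR. Fn1 was higher in coculture in 4 of 8 lines and Twist2 in 1. The sum over all 20 markers, led by Fn1 at 954 to 9780 CPM in mono-culture, was lower in coculture in H (12352 to 11162 CPM), V (10318 to 9877 CPM) and K (9955 to 9297 CPM) and higher in the other 5 lines. The sorted coculture samples therefore held some RNA of fibroblast markers, and a change in tumour cells and RNA from other cells cannot be told apart in these bulk libraries, nor can fewer cells of a type and less RNA per cell.

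Dlk1 (chr12:109452823-109463336), a paternally expressed transmembrane protein of the Notch ligand family that restrains differentiation, went from 0 counts in 32 mono-culture libraries to 769 counts in 32 coculture libraries. Every coculture library held Dlk1, between 0.54 and 4.7 CPM. The line means of Dlk1 were 2.72 CPM in K, 2.01 in T, 1.73 in N, 1.54 in H, 1.42 in E, 1.19 in M, 1.18 in KPC1 and 0.72 in V, with overlapping libraries between most neighbours in that order. The edgeR test over the lines gave an adjusted p of 0.00242, and its fold change depends on the prior count. In clone K the Dlk1 values were 2.2, 0.905, 3.08 and 4.7 CPM where the marker sums were 26.6, 32.1, 156 and 150 CPM. Over the 32 coculture libraries Dlk1 and the marker sum had r = 0.62 and rho = 0.56. Meg3, the maternally expressed partner of Dlk1, had 3 counts in coculture.

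Plagl1, a paternally expressed zinc finger gene that regulates other imprinted genes, rose from 5 to 278 counts (log2 change 5.66, SE 0.63, adjusted p = 5.24e-04), with line means of 0.376 to 0.87 CPM in coculture. It had r = 0.61 and rho = 0.68 with the marker sum over 32 libraries. Peg3 rose over the lines by 1.67 (SE 0.54, adjusted p = 0.0299), to means of 0.96 to 1.39 CPM in the 6 lines that had almost none in mono-culture. In clone V the coculture libraries had 532, 677, 644 and 661 CPM of Peg3 and in KPC1 a mean of 23 CPM, and neither was a call within its line. In those 6 lines Peg3 followed the marker sum with r = 0.78 and rho = 0.81 over 24 libraries. Ndn rose by 2.77 (SE 0.99, adjusted p = 0.0428) and Peg12 by 2.30 (SE 0.71, adjusted p = 0.0251). Ndn means were 0.26 to 0.64 CPM in coculture in the 6 lines at 0 in mono-culture, and in KPC1 Ndn fell to 1.22 CPM (log2 change -1.08, SE 0.43, adjusted p = 0.0525), a call lost without replicate 2 (-0.78) or replicate 4 (-1.06) and with the sample-sheet series as a covariate (-0.99). Within lines, the Peg3 calls were lost in clone E without replicate 2, 3 or 4 (log2 change 0.98 to 1.12) and in clone H without replicate 2 or 3 (1.70 and 1.68). Over 24 libraries each, the marker sum had r = 0.75 with Ndn and r = 0.66 with Peg12. The part of fibroblast RNA in these changes was not tested.

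**Figure D5:**
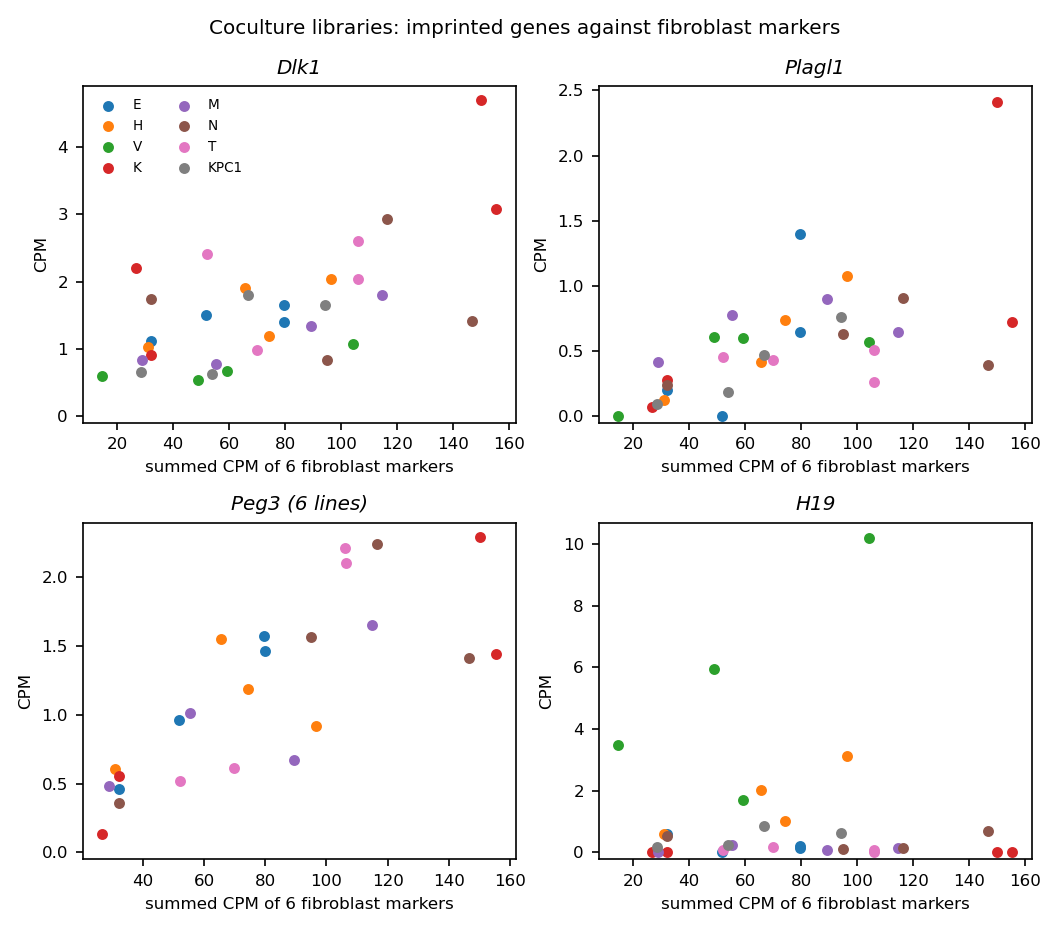
CPM of Dlk1, Plagl1, Peg3 (without clone V and KPC1) and H19 against the summed CPM of 6 fibroblast markers, 1 point per coculture library. Dlk1, Plagl1 and Peg3 are higher where the marker sum is higher (r = 0.62, 0.61 and 0.78), and H19 is not (r = -0.01).

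H19 differed from these genes in its spread over the lines. It is a maternally expressed long noncoding RNA (chr7:142575529-142578143) of the H19-Igf2 domain. H19 had 0 counts in mono-culture and 547 counts in coculture, held by 25 of 32 libraries. The coculture libraries of clone V had 3.48, 5.94, 1.69 and 10.2 CPM of H19 and those of clone H had 0.604, 2.03, 1.02 and 3.11 CPM, while clone K had 0 in all 4. The pooled level in V was at least 110-fold that of K. Among lines in coculture H19 differed with an adjusted p of 2.32e-09 in edgeR, with a log2 difference of 4.89 (SE 0.41) in V, 3.0 (SE 0.48) in H and -5.82 (SE 1.44) in K. Clone K had the second highest mean of the marker sum, 91.1 CPM, and clone V the lowest, 56.7 CPM. Over 32 coculture libraries H19 had r = -0.01 and rho = -0.10 with the marker sum, and within lines, on the log2 scale, r = 0.20. Igf2, the other gene of the domain, had 25 counts in coculture.

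Peg10 and Sgce were higher in the coculture libraries of clone K than in its mono-culture libraries. The coculture libraries had 1.87, 1.81, 3.93 and 6.5 CPM of Peg10 and 0.933, 1.32, 3.21 and 5.82 CPM of Sgce. The log2 changes in K were 5.02 (SE 0.61, adjusted p = 1.44e-08) for Peg10 and 3.76 (SE 0.43, adjusted p = 3.95e-09) for Sgce. The higher values of both genes were in the libraries with marker sums of 156 and 150 CPM, and the part of fibroblast RNA in this result was not tested. Over the 32 coculture libraries Peg10 and the marker sum had r = 0.01 and rho = 0.09, and within lines, on the log2 scale, r = 0.73. In clone V the log2 changes of Peg10 and Sgce were -0.73 and -0.64, under the size set for a call within a line. The rise of Peg10 was not particular to K. It was also called in clone N, from 0.56 to 3.28 CPM, and in clone E, from 0.92 to 2.60 CPM (libraries pooled).

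Grb10 rose over the lines by 0.48 (SE 0.10, adjusted p = 0.00497), from 9.09 to 18 CPM in clone V and from 75.5 to 128 CPM in clone E. Nnat fell by 0.60 (SE 0.14, adjusted p = 0.00671) and Airn by 0.35 (SE 0.13, adjusted p = 0.0540). The Airn call was lost without line H, V, K or KPC1 and without replicate 1 or 3 (log2 changes from -0.33 to -0.25), in the larger sample-sheet series alone (-0.36) and with limma on RPKM (-0.28). On the RPKM scale Peg13 fell by 1.07 (SE 0.16, adjusted p = 0.00155, limma), from 2.98 to 0.64 RPKM in V and from 11.4 to 4.61 RPKM in E, and its mean was lower in coculture in all 8 lines. Kcnq1ot1 fell by 0.29 (SE 0.09, adjusted p = 0.0304, limma). By that test 15 of 22 members changed (beside 43.6% of all genes), of which 11 rose (beside 23.6%) and 4 fell (beside 20%). Its filter, too, could be passed through coculture libraries alone.

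Among lines in coculture, 16 of 19 members tested differed, beside 93.8% of all genes. Of 152 line-gene pairs, 22 were higher (14.5%, beside 5.83%) and 19 lower (12.5%, beside 5.54%). Usp29, at 2 counts or fewer in each line outside clone V, passed the low-count filter through V alone and could only be called higher there. The response to coculture differed between lines for 10 of 20 members, beside 71.3% of all genes. It differed between group 1 and group 2 for 0 of 17 members, beside 0.00689% of all genes, which is 1 gene of 14523. At an unadjusted p under 0.05 there were 1096 genes of all and 3 members, and DESeq2 called Peg3 (log2 -3.82, adjusted p = 0.0855) and 182 genes of all.

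Genes linked to imprinting by location or function were counted in the same fits. Among other imprinted genes of the same clusters, 22 of 22 tested differed among the lines (beside 96.9% of all genes) and 11 of 24 changed in coculture (beside 54.6%), 4 up (beside 27.2%) and 7 down (beside 27.4%), with Dhcr7 (-0.75), Osbpl5 (-0.55) and Copg2 (0.31) among them. Among factors that set or keep imprints, 16 of 16 differed among lines and 11 of 16 changed in coculture, 3 up and 8 down, beside the same shares of all genes. Hells, a chromatin remodeller (0.86), and Dnmt1, the maintenance DNA methyltransferase (0.48), rose, and Tet2, which oxidises methylcytosine, fell (-0.38). In the IGF axis 12 of 12 differed among lines and 5 of 12 changed in coculture, 1 up and 4 down, again beside 96.9% and 54.6% of all genes. Igf1r, the receptor whose signal Grb10 restrains, fell by 0.48, Insr by 0.42 and Igf2bp3 by 0.31.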

How the data were processed

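RNA was prepared with a strand-specific polyA kit (Agilent SureSelect) and sequenced in paired reads on an Illumina NextSeq instrument. Per the labels, the submitters' processing notes name featureCounts, edgeR and the mm10 build, while the aligner and the strand setting of the counting are not given in the sources used here. The authors deposited a table of raw counts per gene and a table of RPKM values, whose depth is unknown from the values alone. Each library was mapped to its line and culture by its title.

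The 32 members and the other gene lists were chosen with earlier results of these data known. CPM are counts divided by the library total times its TMM factor. Tests on counts used edgeR (4.0.16) quasi-likelihood fits with filterByExpr in R (4.3.3), Benjamini-Hochberg adjustment over all genes tested, an adjusted p under 0.1 and, for single lines, an absolute log2 change above 1. Lines were compared over 4 libraries each. The SE printed with an edgeR value was the log2 change divided by the square root of its F statistic. It is not a fitted error of the estimate. Where lines in a comparison had few or no reads, the log2 change depends on the prior count, which this SE does not cover. Groups, and coculture over the lines, were tested on sums of 4 libraries, so that a line counts once. Members without a count row were tested with limma (3.58.1) on log2(RPKM + 0.1), chosen after seeing the data, a scale that understates changes of low genes. Floors of 3 counts and library spreads cover counting error and replicate error only, and the labels do not say that the 4 libraries come from separate cultures, so p-values measure the spread between these libraries, which may be technical. On simulated data, the fit for clone V against the other lines recovered 100% of 200 changed genes among 13225 (log2 change 2), and the fit for coculture recovered 100% of 200 among 13614 (log2 change 1.5). The changed genes were drawn only from well-counted genes. The check therefore does not cover members with few or no counts.

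All members are accounted for. Values in every line are given for members above 1 CPM in some line whose highest mono-culture mean was at least 8 times the lowest, or whose coculture change was called with an absolute log2 change above 1. Other members are given by range, except that library values of Igf2r, Airn, H19, Usp29 and Peg13 were added after their values were seen. Members of the other lists are named only where called, up to 3 a list. Alternatives were RLE scaling, no low-count filter, DESeq2 (1.42.0), sample-sheet series, a replicate block, and leaving out lines or replicates. No column of the authors' own comparisons was used. Part of the mouse genotype is not reported here.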

Additional observations from a re-analysis of the deposited data

Results flagged for a closer look

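In 10 members the response to coculture differed between lines by edgeR's interaction test. The span from the lowest to the highest log2 change was 7.37 for Ndn (KPC1 lowest, N highest, adjusted p = 1.31e-07), 6.97 for Peg3 (KPC1 and K, adjusted p = 1.09e-06), 5.75 for Peg10 (V and K, adjusted p = 1.12e-08) and 5.45 for Peg12 (KPC1 and H, adjusted p = 2.34e-05). It was 4.40 for Sgce (V and K, adjusted p = 6.36e-09), 3.66 for Snrpn (KPC1 and T, adjusted p = 0.00922) and 1.51 for Impact (M and V, adjusted p = 1.67e-08). Smaller spans were found for Igf2r (0.932, adjusted p = 0.0611), Grb10 (0.927, adjusted p = 0.00432) and Zrsr1 (0.877, adjusted p = 7.65e-05). The highest line of Peg3, Ndn, Peg12, Peg10, Sgce and Snrpn was in each case a line with almost no reads of that gene in mono-culture, and there the size depends on the prior count.

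Within a line and culture, 1 library stood far from the other 3 in 7 of 192 groups tested (3.65%), where chance flags about 1 in 20 groups. The gap as a share of the range was 0.918 for Snrpn in K, 0.868 for Peg10 in V and 0.889 for Igf2r in E, all in mono-culture. In coculture it was 0.896 for Igf2r in K, and in KPC1 it was 0.8292 for Sgce, 0.909 for Grb10 and 0.840 for Mcts2.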

How the results depend on the processing

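Of the tests of single members, 1061 kept their direction and their side of the threshold, 28 lost the call and 2 turned direction (Snrpn in E, -0.24, and in K, -0.012, under limma on RPKM). The 11 line-gene pairs lower in 1 line became 21 with DESeq2, 19 in coculture libraries and 20 with limma. Members changed by coculture were 8, and 13 without the low-count filter or 15 with limma. Genes differing between groups were 0, and 1 without the filter, 117 with DESeq2, 217 without clone E, 1 without clone M, 2 in the larger sample-sheet series and 1 in coculture sums. Taking 28 libraries as replicates gave 3925 genes and 4 members, and with the replicate block 3619 genes and 4 members, counts that treat libraries of 1 clone as independent. For the group difference in coculture response, 1 gene became 3 without the filter and 182 with DESeq2 (1 member), 0 to 34 without a clone and 0 to 2 without a replicate number. Only 18 of 32 pairs of mono-culture and coculture libraries with the same number had r above 0.1 (median 0.110), so a shared number was not taken as a pairing, although 24 of 32 libraries were closest to their own number, a hint of pairing in the data and not in the labels. With the replicate block, 13 members differed among lines, 26 pairs were higher and 11 lower, 51 pairs changed in coculture, and 11 members had a line-dependent response, while the block with 64 libraries in place of line sums, a change of the replicate unit as well, gave 9 members changed over the lines. The cause of these shifts was not tested. Depth limits what can be said of members near 1 CPM or below.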
